A study of Mus musculus with 23 samples.

Results

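The Hox genes examined here are the genes of the Hoxa, Hoxb, Hoxc and Hoxd clusters. They were chosen by name, as every gene named Hox followed by a cluster letter and a paralog number, which gave 39 of the 23369 gene names in the RNA-seq tables. The 39 genes comprise 11 Hoxa, 10 Hoxb, 9 Hoxc and 9 Hoxd genes.

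Hox genes encode homeodomain transcription factors that specify position along the head-to-tail axis of the embryo. Within a cluster, genes at the 3′ end have low paralog numbers and are activated early and anteriorly, and genes at the 5′ end have high numbers and are activated late and posteriorly. In mouse embryonic stem cells (ESCs) the clusters are classical targets of the polycomb repressive complexes PRC1 and PRC2 and are transcribed at very low levels. KDM2B binds CpG islands, which are stretches of unmethylated CpG-rich DNA, through its ZF-CxxC domain and carries with it the PCGF1-containing variant of PRC1.

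PolyA+ RNA was sequenced from KDM2Bfl/fl ES cells at passages p10-p20, described as MS12. The study states that MS12 cells served to make the floxed allele, and that the Cre-carrying lines came from a later mating of mice. In these cells both Kdm2b alleles carry loxP sites around the exon encoding most of the ZF-CxxC domain. They also carry a Cre fused to ERT2 at 1 Rosa26 allele. The groups were 3 untreated replicates and 3 replicates given 4-hydroxytamoxifen for 72 hr, which the study describes as biological triplicates. The dose is 800 nM in the sample labels but 800 µM in the series text. All cells had been maintained with serum and LIF on inactivated mouse embryonic fibroblasts and were left to settle overnight without these feeders. No tamoxifen-treated cells without the floxed allele are among the samples, so an effect of tamoxifen or Cre cannot be told apart from one of the deletion.

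Samples were grouped by their labels. The deposited file names assign all 6 samples the other way round, and if those names were right every difference below would have the opposite sign with the same size and p. Kdm2b, counted over the whole gene, was at 27.0, 21.5 and 27.7 FPKM (fragments per kilobase of transcript, scaled to the sequencing depth of the sample) in the untreated samples and at 19.9, 21.9 and 25.0 FPKM in the tamoxifen samples. These ranges overlap, and a value for the whole gene does not report the loss of 1 exon, so it does not check the labels. Values in each sample are given below in the order of replicates 1, 2 and 3. Read totals cannot be taken from FPKM, and depth relative to untreated replicate 1 was estimated from the steps in the deposited intervals. It was 0.956 and 0.769 in untreated replicates 2 and 3, and 0.792, 0.878 and 0.659 in the tamoxifen samples. Each tamoxifen sample was thus shallower than the untreated sample of its number.

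Hox mRNA was low in every sample. The highest value of any Hox gene was 4.64 FPKM, for Hoxb9 in untreated replicate 3, and the median of the 234 values was 0.150 FPKM. A level of 1 FPKM was reached in at least 1 sample by 6 genes, and none reached it in all 6. Of the 39 genes, 16 were listed at 0 in at least 1 sample, with 9 such values in the untreated and 26 in the tamoxifen samples. These counts were not matched for depth, which was lower in the tamoxifen samples, and values at 0 were not counted over other genes. In bulk RNA, fewer cells expressing a gene and less RNA per cell cannot be told apart.

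**Figure D1:**
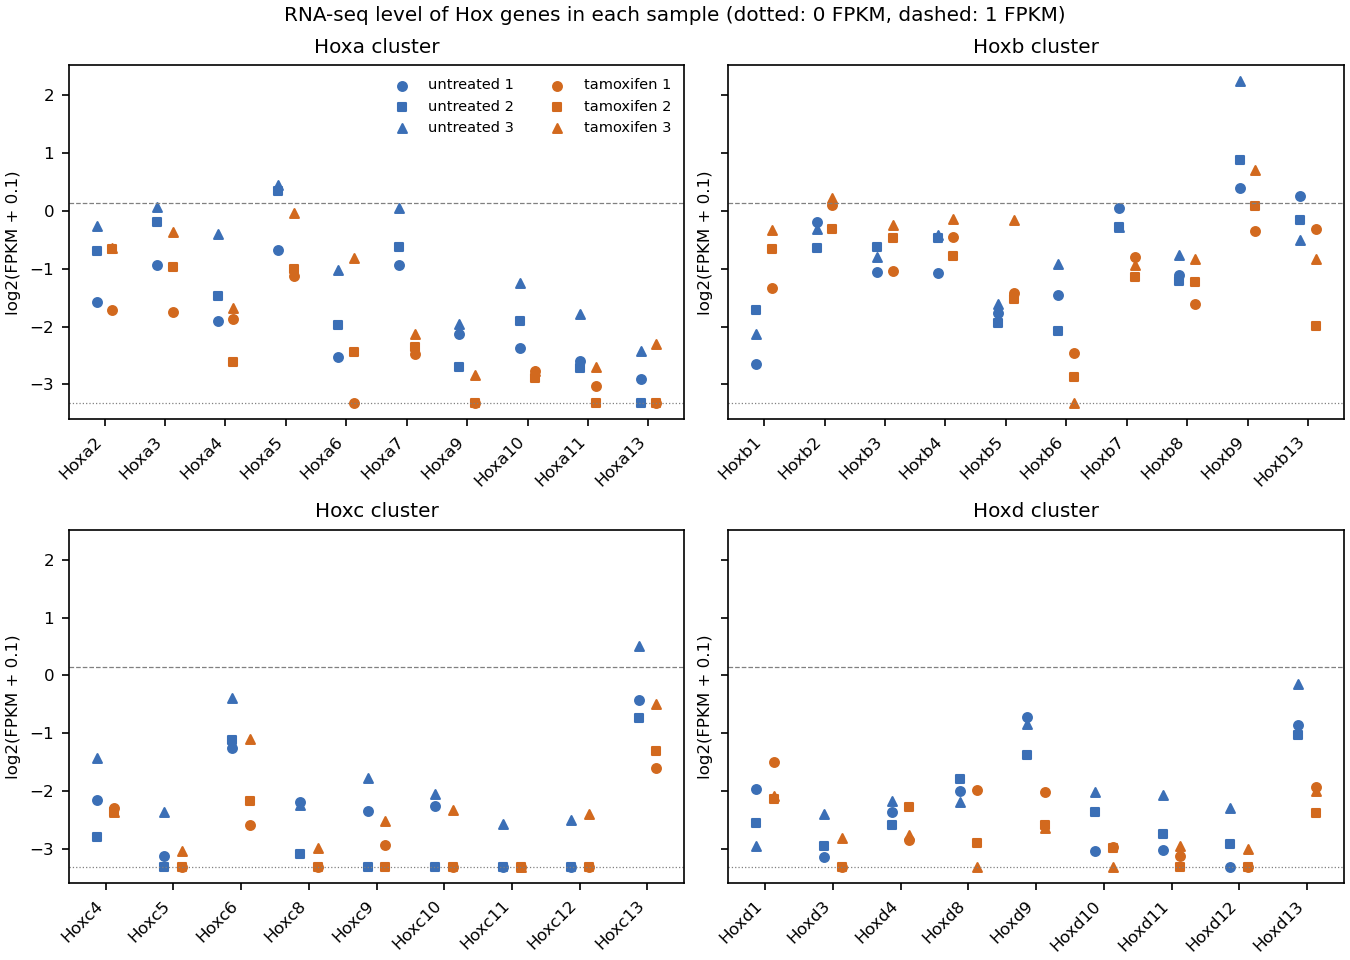
Level of Hox genes as log2(FPKM + 0.1), with 1 panel per cluster and genes in order of paralog number. Blue symbols are the untreated and orange symbols the tamoxifen samples, and the symbol shape gives the replicate number. Few points lie above the dashed line at 1 FPKM. Outside Hoxb1 to Hoxb5 the tamoxifen mean was lower for most genes, although orange and blue points overlap for most of them.

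Summed over the 39 genes, Hox FPKM was 13.1, 13.2 and 21.5 in the untreated samples and 8.58, 7.78 and 13.3 in the tamoxifen samples. Untreated replicate 3 and tamoxifen replicate 3 were the highest of their groups, and tamoxifen replicate 3 lay just above untreated replicates 1 and 2. The means were 15.9 ± 4.86 (SD, n = 3) and 9.90 ± 3.01 (SD, n = 3), a 1.61-fold lower sum with tamoxifen. Within replicate numbers 1, 2 and 3 the log2 ratio of the sums was -0.61, -0.76 and -0.69.

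The mean was lower with tamoxifen for 32 genes and higher for 7, a count that was not made over other genes. Tamoxifen was below untreated within all 3 replicate numbers for 19 of the 39 genes, and above for 5. Of all gene names with a mean FPKM in the range of the Hox genes, 23.1% were lower and 16.1% higher in all 3 numbers. The 2 groups did not overlap for 8 Hox genes with tamoxifen lower, among them Hoxa7, Hoxa9, Hoxa10, Hoxb6, Hoxb7, Hoxd9 and Hoxd13, and for 2 with tamoxifen higher (Hoxb1 and Hoxb5). Over gene names of a like level these shares were 7.89% and 6.3%. The median log2 difference over the 39 genes was -0.52, beside -0.07 over the gene names of a like level.

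The direction followed position in the Hoxb cluster. Hoxb1, Hoxb2, Hoxb3 and Hoxb5 were higher with tamoxifen within all 3 replicate numbers and Hoxb4 within 2, whereas Hoxb6, Hoxb7, Hoxb8, Hoxb9 and Hoxb13 were all lower within all 3 numbers. Summed FPKM of Hoxb1 to Hoxb5 was 1.78, 2.08 and 2.19 in the untreated and 2.57, 2.59 and 4.12 in the tamoxifen samples, without overlap. For Hoxb6 to Hoxb13 the sums were 3.87, 3.75 and 6.90 untreated against 2.19, 1.83 and 2.89 with tamoxifen, again without overlap but in the other direction. This division of the cluster was drawn after the values had been seen, and no test was run on it. The Hoxa cluster showed no such division, since the means of all 11 genes were lower with tamoxifen, including those of Hoxa2 to Hoxa5.

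**Figure D2:**
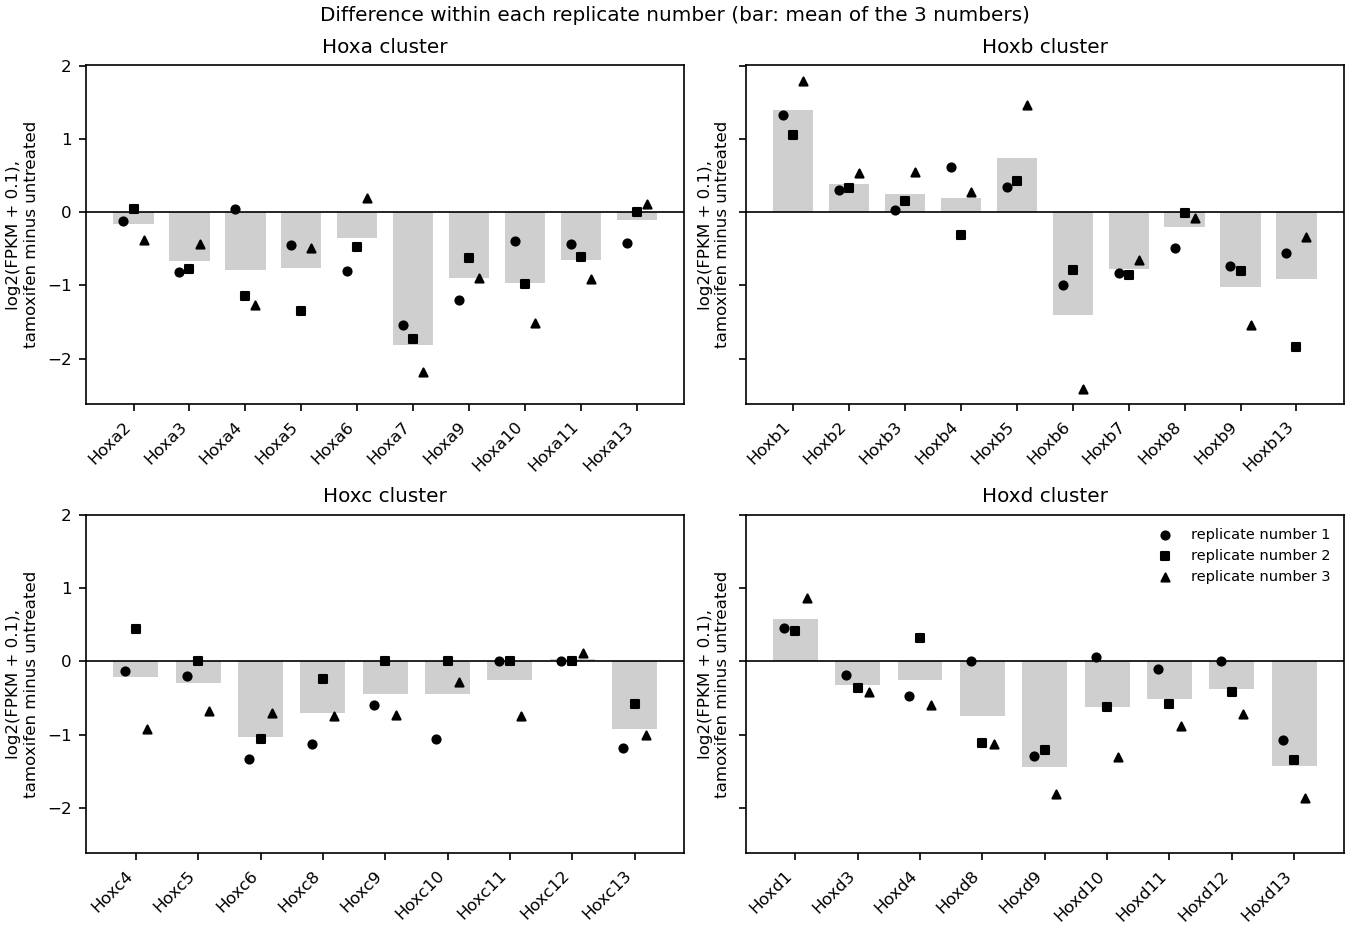
Difference in log2(FPKM + 0.1), tamoxifen minus untreated, within each replicate number for Hox genes, with 1 panel per cluster and genes in order of paralog number. Points are the 3 replicate numbers and bars their mean. The bars of Hoxb1 to Hoxb5 and Hoxd1 point up, those of Hoxb6 to Hoxb13 point down, and nearly all others point down.

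By cluster, the log2 ratio of the group means of summed FPKM was -0.88 for Hoxa, -0.34 for Hoxb, -1.18 for Hoxc and -1.41 for Hoxd. By paralog number it was -0.13 for groups 1 to 4, -0.85 for groups 5 to 8 and -1.35 for groups 9 to 13. The sum over groups 1 to 4, the genes of the hindbrain and neck region, was 5.19, 5.21 and 6.64 FPKM untreated and 4.77, 4.44 and 6.39 FPKM with tamoxifen, so that these ranges overlapped. The sum over groups 9 to 13, the genes of the posterior trunk, limb and tail, was 4.48, 4.18 and 9.45 FPKM untreated and 2.09, 1.63 and 3.37 FPKM with tamoxifen, with every tamoxifen sample below every untreated one. Hoxb9 alone made up 4.64 of the 9.45 FPKM in untreated replicate 3. Paralog group 7, which holds Hoxa7 and Hoxb7, went from 1.35, 1.28 and 1.66 FPKM to 0.559, 0.451 and 0.556 FPKM.

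**Figure D3:**
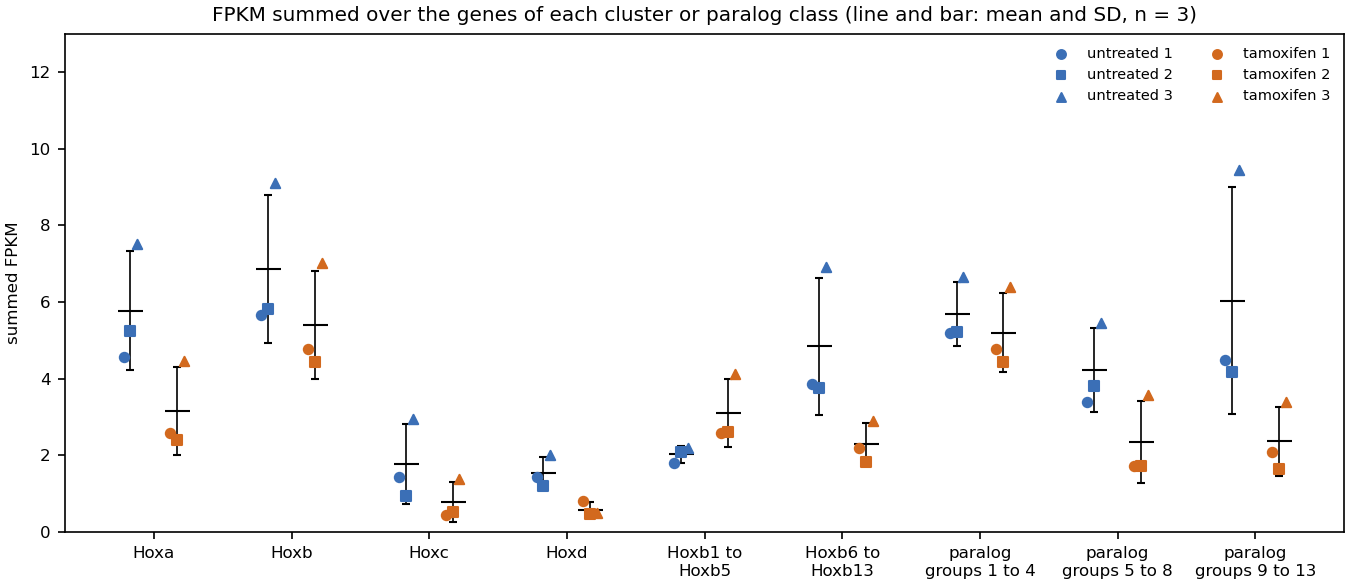
FPKM summed over the genes of each cluster, of the 2 parts of the Hoxb cluster and of 3 classes of paralog groups. Points are samples (blue untreated, orange tamoxifen, shape by replicate number), and black lines and bars the mean and SD of 3. The Hoxb1 to Hoxb5 sums are the only ones shown whose tamoxifen samples lie above the untreated samples.

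To test single genes, limma, a linear model with a spread shared across genes, was fitted to log2(FPKM + 0.1) of 12997 genes with at least 0.5 FPKM in at least 3 samples, and an adjusted p (Benjamini-Hochberg) under 0.05 was called. Of the 39 Hox genes 11 entered this fit, Hoxb7 through its untreated samples alone. Without regard to replicate numbers, 0 Hox genes passed. Only 1 of the 11, Hoxb7, had an unadjusted p under 0.05, beside 623 of the 12997 genes. Its entry through the group where it was high favours a decrease. Only 0.0308% of all genes passed in that fit. With a block for the replicate number, which compares samples of the same number, 10.4% of all genes passed (4.33% higher and 6.06% lower). Of the 11 Hox genes Hoxb9 alone passed, as lower with tamoxifen.

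Because most Hox genes lie under that limit, the fit was repeated on the 15122 genes with at least 0.1 FPKM in at least 3 samples, which took in 24 Hox genes, Hoxb6 through its untreated samples alone. Without the block 0 of the 24 passed, beside 0.0265% of all genes. With the block 5 passed as lower with tamoxifen (Hoxa7, Hoxb9, Hoxc13, Hoxd9 and Hoxd13) and 1 as higher (Hoxb1). Of these, Hoxa7, Hoxd9 and Hoxd13 reached 0.1 FPKM in every untreated but not every tamoxifen sample, and Hoxb1 the reverse. The filter therefore favours a decrease for Hoxa7, Hoxd9 and Hoxd13 and an increase for Hoxb1. Over all genes of this fit 5.09% were called lower and 3.78% higher. These calls rest on few residual degrees of freedom and on the pairing of replicate numbers, and 15 Hox genes lay under this filter. With both samples of replicate number 2 left out, 0 of the 6 calls remained. Without replicate number 3 only Hoxa7 stayed past the threshold, and without replicate number 1 all but Hoxc13 did.

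The sequence before the start of 2 of these genes is printed here to show the CpG dinucleotides, which KDM2B recognises. Hoxb1 was called higher and Hoxd13 lower, and a link between CpG number and direction was not tested. Each line runs 5′ to 3′ on the + strand of mm9 and ends at or just before the start of the gene, with each CpG in capitals. Hoxb1 is shown from chr11:96226822-96227065 and Hoxd13 from chr2:74506117-74506366.
Hoxb1: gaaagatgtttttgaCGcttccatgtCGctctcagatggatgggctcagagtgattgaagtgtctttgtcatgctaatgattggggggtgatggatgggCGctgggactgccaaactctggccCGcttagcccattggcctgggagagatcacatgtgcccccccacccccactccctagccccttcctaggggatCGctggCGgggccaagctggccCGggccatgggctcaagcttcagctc
Hoxd13: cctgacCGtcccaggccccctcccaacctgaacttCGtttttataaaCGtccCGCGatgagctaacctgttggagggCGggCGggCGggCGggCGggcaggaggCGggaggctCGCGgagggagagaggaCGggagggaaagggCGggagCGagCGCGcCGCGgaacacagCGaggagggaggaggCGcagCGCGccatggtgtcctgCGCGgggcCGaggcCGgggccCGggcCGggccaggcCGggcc
The Hoxb1 stretch holds 7 CpGs in 244 bases and the Hoxd13 stretch 31 in 250. The pair was chosen with these counts known, and Hoxa7, also called lower, has 7 CpGs in the 250 bases before its start, as many as Hoxb1.

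CpG content did not divide the whole set in this way. The start was taken as the 5′ edge of each locus. A start inside a wide locus, such as that of Hoxb3 (mm9 chr11:96184440-96209244), was not examined. Over the 1000 bases around the start, a region counted as CpG-rich if its ratio of observed to expected CpGs was 0.6 or more and its GC content 55% or more. By this definition 20 of 39 Hox starts (51.3%) were CpG-rich, beside 41.5% of 20864 genes. Of the 19 genes that were lower within all 3 replicate numbers 11 had a CpG-rich start, with a median ratio of 0.702, and of the 5 that were higher 2 did, with a median ratio of 0.428. Hoxa7, with a ratio of 0.327, was among the genes called lower and had the poorest start of them. The starts of Hoxb1, Hoxb2, Hoxb3 and Hoxb4 were all CpG-poor at 0.428, 0.400, 0.373 and 0.494. Those of Hoxb5 and Hoxd1, which were higher within all 3 numbers, were CpG-rich at 0.876 and 0.795.

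Binding motifs were searched on both strands of the 250 bases before each start. TGATNNAT, the motif of PBX and HOX proteins bound together, was present at 7 of 39 Hox genes (17.9%) and 6.60% of all genes. TTTATG, the motif of CDX factors, was present at 9 (23.1%) and 9.35%, and TGACAG, the motif of MEIS factors, at 4 (10.3%) and 14.9%. The stretch of Hoxb1 at chr11:96226842-96226941, + strand, is printed with its TGATNNAT match in capitals, beginning at position -162 relative to the start, because Hoxb1 is known for a PBX-dependent autoregulatory element.
Hoxb1 motif: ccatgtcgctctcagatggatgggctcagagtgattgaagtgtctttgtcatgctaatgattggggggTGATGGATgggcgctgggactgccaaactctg
A match describes these letters and is not evidence of binding.

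Among the anterior genes, Hoxb1 (mm9 chr11:96227072-96229567), which specifies rhombomere 4 of the hindbrain and responds to retinoic acid early, moved the most. It was at 0.0590, 0.206 and 0.129 FPKM untreated and at 0.298, 0.538 and 0.694 FPKM with tamoxifen. Every tamoxifen sample was above every untreated one, and the ratio of means was 3.88. The log2 change was 1.39 ± 0.26 (SE), with an adjusted p of 0.0238 by limma with the block and 0.495 without it, and 0.0233 to 0.749 over the alternatives run. The counts behind these values were small, at about 3.3, 11.1 and 5.6 fragments untreated and 13.3, 26.6 and 25.7 with tamoxifen.

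Hoxd1, a paralog of Hoxb1, stayed at or under 0.252 FPKM and was higher with tamoxifen within all 3 numbers. Hoxd1 lies outside the rule for named genes, as do Hoxa9, Hoxa10, Hoxb6, Hoxb8, Hoxc9 and Hoxc12, and these were named after their values were seen.

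Hoxb2, Hoxb3 and Hoxb4, which act in the hindbrain and neck, did not pass. Hoxb2 was at 0.775, 0.542 and 0.711 FPKM untreated and 0.978, 0.707 and 1.07 FPKM with tamoxifen. Hoxb3 was at 0.380, 0.547 and 0.475 FPKM, then 0.389, 0.620 and 0.742 FPKM. Hoxb4 was at 0.375, 0.621 and 0.652 FPKM, then 0.630, 0.480 and 0.812 FPKM. The ranges of the groups overlapped for all 3, and the adjusted p by limma with the block was 0.257, 0.547 and 0.658.

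Hoxb5, a gene of the lower neck and upper trunk, was at 0.196, 0.160 and 0.228 FPKM untreated and at 0.275, 0.248 and 0.802 FPKM with tamoxifen. The groups did not overlap, although tamoxifen replicate 3 carried most of the difference. Its change of 0.74 ± 0.30 (SE) did not pass, with an adjusted p of 0.157 by limma with the block.

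The Hoxa genes of paralog groups 2 to 5 lay on the other side. Hoxa2 was at 0.234, 0.516 and 0.736 FPKM untreated and 0.207, 0.535 and 0.540 FPKM with tamoxifen, which overlap almost entirely. Hoxa3 was at 0.426, 0.776 and 0.946 FPKM, then 0.199, 0.413 and 0.675 FPKM. Hoxa5, required for the respiratory tract and the neck vertebrae, was at 0.529, 1.18 and 1.27 FPKM, then 0.361, 0.402 and 0.879 FPKM. Both genes were lower within every replicate number, while replicate 1 was lowest in each group and the ranges overlapped. Hoxa4 was at 0.167, 0.263 and 0.656 FPKM untreated and 0.175, 0.0634 and 0.214 FPKM with tamoxifen, lower within 2 of the 3 numbers. The adjusted p by limma with the block was 0.123 for Hoxa3, 0.109 for Hoxa5 and 0.166 for Hoxa4 on the wider set of genes. The Hoxa3 locus spans Hoxa4, Hoxa5 and Hoxa6, and the split of reads between these genes is uncertain.

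Hoxa7 (mm9 chr6:52165623-52168572, minus strand), a trunk gene and a classical polycomb target, showed the largest called decrease of the clusters. It was at 0.422, 0.553 and 0.938 FPKM in the untreated samples and at 0.0798, 0.0962 and 0.129 FPKM in the tamoxifen samples. The groups were far apart, with a 6.26-fold ratio of means. Its untreated samples brought it past the filter at 0.1 FPKM, which favours a decrease. The log2 change was -1.82 ± 0.26 (SE), with an adjusted p of 0.0113 by limma with the block and 0.283 without it, and 0.00513 to 0.501 over the alternatives run. About 22.3, 27.9 and 38.1 fragments lay behind the untreated values and 3.3, 4.5 and 4.5 behind the tamoxifen values.

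Its paralog Hoxb7 was at 0.933, 0.725 and 0.726 FPKM untreated and 0.479, 0.355 and 0.427 FPKM with tamoxifen. The groups did not overlap and the spread within each was small. The change of -0.78 ± 0.23 (SE) had an adjusted p of 0.0744 by limma with the block, and so did not pass. Of its neighbours, Hoxb6 did not pass either, with untreated values of 0.263, 0.138 and 0.432 FPKM, tamoxifen values of 0.0830, 0.0376 and 0 FPKM and an adjusted p of 0.0634 by limma with the block on the wider set of genes, which Hoxb6 entered through the group where it was high, so that the filter favours a decrease. Hoxb8, at 0.362, 0.332 and 0.493 FPKM and then 0.229, 0.327 and 0.462 FPKM, overlapped between the groups.

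Hoxc6, a gene of the upper trunk, was at 0.318, 0.362 and 0.660 FPKM untreated and at 0.0669, 0.121 and 0.367 FPKM with tamoxifen. It was lower within every replicate number, but tamoxifen replicate 3 lay just above the untreated replicates 1 and 2. Its adjusted p by limma with the block was narrowly above the threshold.

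The posterior genes held most of the calls. Hoxb9 (mm9 chr11:96132644-96137907), which with its paralogs patterns the thoracic skeleton, was at 1.21, 1.75 and 4.64 FPKM untreated and at 0.690, 0.960 and 1.54 FPKM with tamoxifen. Untreated replicate 3 stood far above the rest, and tamoxifen replicate 3 was above untreated replicate 1, so that the groups overlapped although each replicate number showed a decrease. The log2 change was -1.02 ± 0.21 (SE), with an adjusted p of 0.026 by limma with the block, and -1.02 ± 0.50 (SE) with 0.999 without it. With quantile normalization added to the block the adjusted p was 0.059, and without replicate numbers 1, 2 and 3 in turn it was 0.00389, 0.134 and 0.101. Over all alternatives run it ranged from 0.00389 to 1.0.

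Hoxd9 (mm9 chr2:74535820-74538265), which acts in limb and lower spine, was at 0.505, 0.285 and 0.457 FPKM untreated and at 0.147, 0.0665 and 0.0596 FPKM with tamoxifen. The ranges were separate. Entry into the wider set of genes again rested on the untreated samples, which favours a decrease. The log2 change was -1.44 ± 0.27 (SE), with an adjusted p of 0.0229 by limma with the block and 0.348 without it, and 0.0229 to 0.537 over the alternatives run. Of its paralogs besides Hoxb9, Hoxa9 reached at most 0.159 FPKM and Hoxc9 at most 0.191 FPKM, and their means were lower with tamoxifen too.

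At the 5′ ends of the clusters, Hoxd13, which shapes digits and genital tubercle, was at 0.453, 0.390 and 0.803 FPKM untreated and at 0.163, 0.0922 and 0.148 FPKM with tamoxifen. Every tamoxifen sample was below every untreated one. Its log2 change was -1.43 ± 0.27 (SE), with an adjusted p of 0.0225 by limma with the block and 0.349 without it, and 0.0152 to 0.555 over the alternatives run. Hoxc13, which is needed for hair and nails, was at 0.645, 0.502 and 1.32 FPKM untreated and at 0.230, 0.302 and 0.607 FPKM with tamoxifen. Tamoxifen replicate 3 overlapped the untreated range, and the adjusted p of 0.0487 by limma with the block on the wider set of genes was 0.0609 on the narrower one, and reached 1.0 over the alternatives run. Hoxb13, a gene of the tail and hindgut, was at 1.10, 0.801 and 0.610 FPKM untreated and at 0.711, 0.151 and 0.461 FPKM with tamoxifen, with an adjusted p of 0.122 by limma with the block.

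**Figure D4:**
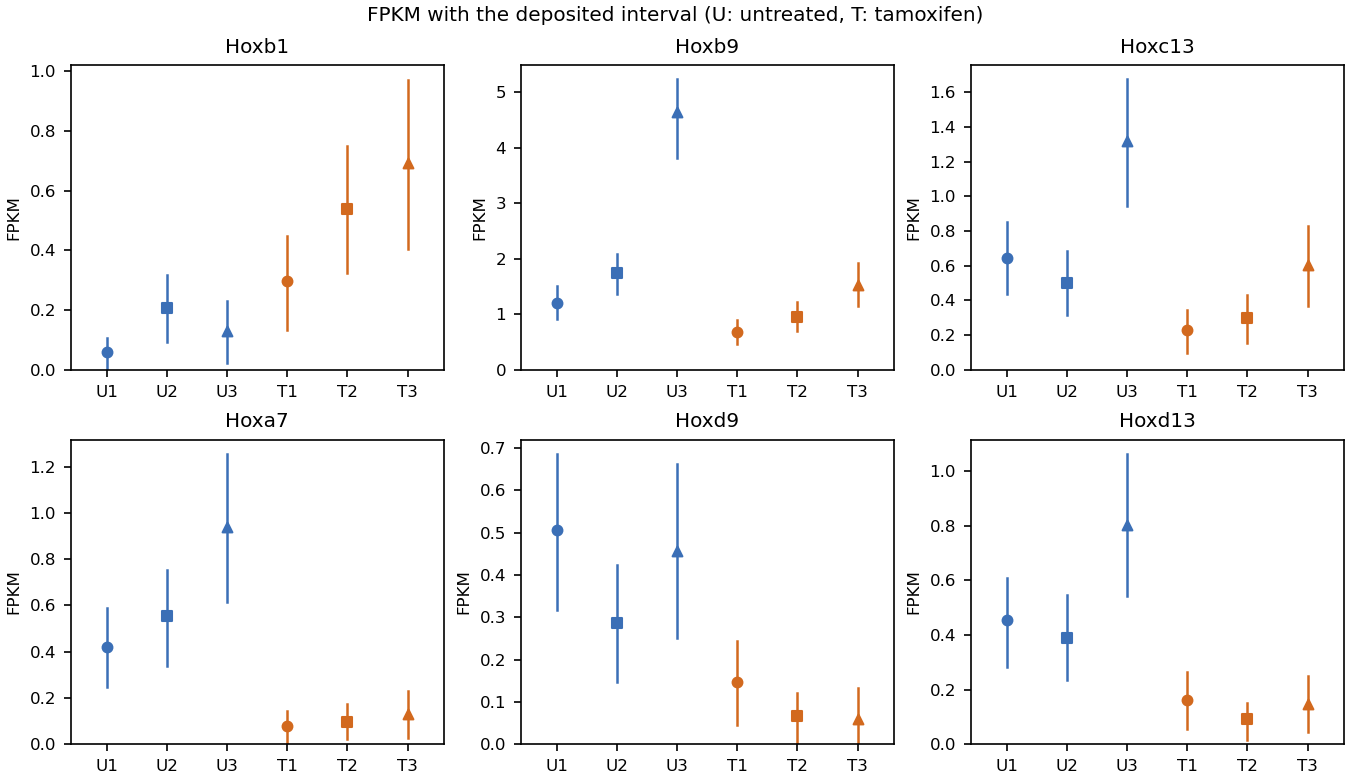
FPKM of the 6 Hox genes called with the replicate block on the wider set of genes, in the untreated (U1 to U3) and tamoxifen (T1 to T3) samples. Vertical lines are the lower and upper bounds deposited with each value, which cover the counting within a sample and not the spread between cultures. For Hoxa7, Hoxd9 and Hoxd13 all 3 tamoxifen points lie below all untreated points, for Hoxb1 above them, and for Hoxb9 and Hoxc13 the groups overlap.

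The 21 Hox genes outside the rule for named genes did not exceed 0.493 FPKM in any sample. Their mean was lower with tamoxifen for 19 and higher for 2, Hoxc12 and Hoxd1, again without such a count over other genes. In the 5′ part of Hoxa, Hoxa9 and Hoxa10 were lower without overlap, and Hoxa10 went from 0.0937, 0.167 and 0.321 FPKM to 0.0475, 0.0356 and 0.0478 FPKM. Hoxa11 overlaps the antisense locus Hoxa11as, and Hoxd3 spans Hoxd4, so that these values are uncertain.

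HOX proteins bind DNA with TALE cofactors of the PBX, MEIS and PKNOX families. All 9 cofactor genes were tested. By limma with the block, where 10.4% of all genes passed, 1 was lower and 1 higher. Meis1 was at 2.08, 3.45 and 5.65 FPKM untreated and 1.65, 2.04 and 2.93 FPKM with tamoxifen (adjusted p = 0.0451, limma), and Pknox2 at 0.790, 0.388 and 1.01 FPKM, then 1.37, 1.15 and 2.04 FPKM (adjusted p = 0.0271, limma). Pbx2, the most abundant, was at 27.9, 17.8 and 19.6 FPKM and then at 27.8, 20.0 and 19.1 FPKM. Without the block 0 of the 9 passed.

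A further list of 18 genes held regulators of Hox genes and the ParaHox genes Gsx1, Gsx2 and Pdx1. Of the 18 genes 12 were tested, and with the block 3 were lower and 0 higher, beside 6.06% and 4.33% of all genes. Cdx2, which activates trunk and posterior Hox genes, was at 1.82, 0.816 and 1.14 FPKM untreated and at 0.407, 0.433 and 0.494 FPKM with tamoxifen, with every tamoxifen sample below the untreated ones (adjusted p = 0.0312, limma). Gsx1, a ParaHox gene, was at 0.987, 0.640 and 1.81 FPKM, then 0.0593, 0.268 and 0.613 FPKM (adjusted p = 0.0267, limma). Gdf11, a ligand that sets the trunk-to-tail transition, was at 1.08, 3.32 and 2.67 FPKM, then 0.607, 1.88 and 1.83 FPKM (adjusted p = 0.0416, limma). The most abundant regulators were Psip1, Ctcf and Rarg, none of which passed, and the retinoic acid receptor Rarg was close to the threshold at 41.7, 35.3 and 46.8 FPKM untreated, 24.7, 31.0 and 33.6 FPKM with tamoxifen and an adjusted p of 0.0501 by limma with the block.

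Genes that flank the clusters were described as a local comparison. Of 10, 7 were tested and 0 passed with or without the block, beside 10.4% of all genes passing with it. With the block 2 had an unadjusted p under 0.05, a measure for which the share over all genes was not counted. Cbx5, Tax1bp1 and Mtx2 were the most abundant, and Mtx2, which adjoins the Hoxd cluster, was at 31.7, 22.7 and 31.1 FPKM untreated and at 35.7, 24.3 and 36.3 FPKM with tamoxifen. Evx2, at the 5′ end of Hoxd, was listed at 0 in 5 of the 6 samples.

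Fibroblasts express Hox genes, and feeders had been present in these cultures. All fibroblast markers but Lum were detected in every sample. The summed FPKM of these markers was 131, 216 and 257 untreated and 198, 191 and 182 with tamoxifen, and Tagln was the largest part in each sample. The ranges overlapped, and of 19 markers tested with the block 1, Twist1, was lower and 0 were higher, beside 6.06% and 4.33% of all genes. Col1a1 was at 15.6, 40.3 and 31.2 FPKM and then at 19.3, 38.2 and 29.7 FPKM, Col1a2 at 11.5, 33.2 and 19.1 FPKM and then at 16.3, 31.9 and 19.1 FPKM, and Tagln at 73.2, 74.9 and 147 FPKM and then at 137, 59.2 and 80.1 FPKM. The part of feeder cells in the Hox values was not tested.

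The cells expressed the markers of ESCs, with Pou5f1 at 690, 369 and 537 FPKM untreated and 832, 475 and 552 FPKM with tamoxifen, and 0 of 10 such markers passed with the block. Some markers of differentiating cells were called lower with the block, in which 6.06% of all genes were lower and 4.33% higher. Of neural progenitor markers 5 of 10 were tested, with 4 lower (Pax6, Sox1, Nes and Olig2) and 1 higher (Neurog1), and the summed FPKM of that list was 51.6, 45.4 and 54.5 untreated and 24.2, 25.9 and 37.3 with tamoxifen. Of primitive endoderm markers 7 of 10 were tested, with 4 lower (Gata4, Gata6, Lama1 and Col4a1) and 0 higher. The summed FPKM of that list was 280.1, 524 and 384 untreated and 313, 402 and 292 with tamoxifen. Most of each sum was Sparc, which did not pass, at 249, 451 and 329 FPKM untreated and 296, 362 and 260 FPKM with tamoxifen. Of mesoderm and streak markers 4 of 10 were tested, with Eomes lower and Fgf8 higher. In each of these lists 0 genes passed without the block. The part of differentiating cells in the Hox values was not tested.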

How the data were processed

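Reads of 6 polyA+ directional paired-end libraries were aligned by the authors to mm9 with TopHat2 (0.5 in the submitters' processing notes), and FPKM per refGene locus, with bounds and a status, come from Cufflinks and Cuffdiff 2.1.1 as deposited. The 17 ChIP and input samples of the series were not analysed here. FPKM was summed per gene name. After inspection of the tables, 6 gene names whose quantification had failed in at least 1 sample were removed. Groups were compared on log2(FPKM + 0.1) by limma 3.58.1 under R 4.3.3, with a mean-variance trend in eBayes, and fold changes on that scale understate changes of low genes. The fits at 0.5 FPKM, with and without the block, were checked on simulated data with 200 changed genes. Those at 0.1 FPKM were not checked in this way. Deviations of samples with the same replicate number from their group means correlated over 12997 genes at 0.506 to 0.605, against -0.105 at most for different numbers, so the numbers were taken as pairs. Deviations sum to 0 within a group, so positive values for same numbers bring negative ones for different numbers, which are no separate support. This pairing comes from the data and not from the labels. With 3 samples in each group an exact two-sided permutation test cannot go below 0.1 for a single value, so none is given.

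Approximate fragment numbers were read from the deposited bounds, which are whole multiples of the value of 1 fragment, for 30 Hox genes, and are minimum estimates. Promoter sequence came from NCBIM37, the mm9 build, with GENCODE exons, read with pysam 0.24.0 in Python 3.11.15. Values in each sample are given for Hox genes past the filter or with at least 0.5 FPKM in any sample (18 genes, of which 1, like 1 promoter sequence, is not reported here but counts in the sums), and other lists are described by genes past the threshold and by genes among their 3 most abundant. Alternatives were pseudocounts of 1 and 0.01, TPM scaling, quantile normalization, other filters, the block, the highest row per name, no trend and leaving out samples. The Hox genes, gene lists and tests were chosen with earlier results of these data known.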

Additional observations from a re-analysis of the deposited data

How the results depend on the processing

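The fits differ most in whether they use the replicate block. Without it 3 genes of all tested were higher and 1 lower. With it 563 and 787 were, with quantile normalization added 558 and 586, with a pseudocount of 1 FPKM 659 and 931, with TPM scaling without loci under 300 bp 310 and 919, with the filter at 0.1 FPKM 571 and 769, and with both changes of filter and scaling 540 and 548. With no filter and the block 0 and 0 passed. Without the block, no filter gave 1 and 0, a filter of 1 FPKM in all samples 0 and 0, and a pseudocount of 1 FPKM 0 lower genes. Leaving out samples gave 2 to 744 higher and 0 to 1011 lower genes. For Hox genes, 0 passed in the fit reported first, 1 lower with the block, 2 lower with the block and a pseudocount of 1 FPKM, 1 lower with TPM scaling without short loci, and 5 lower and 1 higher with the filter at 0.1 FPKM, of which 3 lower and 1 higher held with quantile normalization. Leaving out samples gave 0 to 4 lower and 0 to 1 higher. In the other lists 0 passed without the block, and with it 3 were higher and 14 lower, 3 and 11 with quantile normalization, 3 and 15 with a pseudocount of 1 FPKM, 2 and 16 with TPM scaling, and 0 to 6 and 0 to 14 with a replicate number left out. The median log2 change of the 11 Hox genes tested was -0.67, beside -0.02 over all genes, -0.34 with a pseudocount of 1 FPKM and -0.79 to -0.44 with a sample or a replicate number left out, and the log2 ratio of summed FPKM was -0.69, with -0.56 under TPM scaling and -0.96 to -0.41 with a sample left out. Hoxa2 changed sign with quantile normalization (0.0255, with and without the block), and ranged from -0.52 to 0.20 with samples left out. Hoxb4 ranged from -0.0182 to 0.45 and Hoxc4 from -0.53 to 0.15 in that way. The cause was not tested. Over single Hox genes and alternatives, 359 values kept direction and side of the threshold, 21 passed it, all of them with the block, and 8 changed sign. TPM scaling moves the median of all genes from -0.02 to 0.08 on the log2 scale. Without loci under 300 bp, TPM scaling moves that median to -0.11. The 15 of 39 Hox genes under the filter at 0.1 FPKM entered only the fits without a filter. Low values rest on few fragments, such as about 3.3 to 38.1 for Hoxa7.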

Other observations

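Other loci lie inside the clusters. Mira, a non-coding locus next to Hoxa7 (mm9 chr6:52164490-52165287), was at 1.55, 1.37 and 1.80 FPKM in untreated replicates 1, 2 and 3 and at 0.700, 0.777 and 1.45 FPKM with tamoxifen. It was lower within every replicate number while the groups overlapped, and its change of -0.69 ± 0.21 (SE) had an adjusted p of 0.0768 by limma with the replicate block. Gm53, between Hoxb13 and Hoxb9, was at 0.798, 1.40 and 2.36 FPKM and then at 1.11, 1.52 and 1.41 FPKM, a change of -0.05 ± 0.24 (SE). Hoxa11as was detected in the 3 untreated samples, at 0.0296, 0.0752 and 0.110 FPKM, and listed at 0 in the 3 tamoxifen samples. Hotair stayed at or under 0.0280 FPKM. The microRNA loci Mir10a, Mir10b, Mir196a-1, Mir196a-2, Mir196b and Mir615 were listed at 0 in all samples.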
